A study of Rattus norvegicus with 4 samples.

Results

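The genes described here encode the machinery that carries insulin granules to the plasma membrane and fuses them with it. They were taken from a list of 38 symbols of SNARE proteins, synaptotagmins, Rab GTPases, priming factors and granule proteins. The deposited tables hold 23360 gene symbols and list 37 of the 38. Snap23 was not matched and was not analysed here. Of the 37, 35 had a mean of at least 1 TPM (an abundance corrected for transcript length, which sums to 1000000 in each sample) and were tested among 11960 genes.

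RNA came from INS-1 832/3, an insulin-secreting line derived from a rat insulinoma, so every sample is a line of tumour origin and no islet was measured. Each of the 2 conditions compared had 2 biological replicates, with RNA taken at passage 3 after 5 days: a standard 2D monolayer culture without hydrogel, and 3D culture in which the cells were bioprinted in GelXA LAMININK 411, a gelatin-based bioink that holds laminin 411. Both groups grew in the same RPMI-1640 medium with serum. The comparison asks how the transcripts of the release machinery differ between cells in monolayer and cells in the printed gel.

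Insulin is stored in dense-core granules that dock at the plasma membrane and fuse with it when calcium rises. Fusion is driven by SNARE proteins, in which a syntaxin and Snap25 of the plasma membrane zip together with a VAMP of the granule. Sec1/Munc18 proteins hold the syntaxins, synaptotagmins and Doc2 proteins sense calcium, Rab3 and Rab27 with their effectors tether and dock the granule, Unc13 and Cadps proteins prime it, complexins clamp the partly zipped complex, and Nsf with Napa takes spent complexes apart.

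In 3D culture 8 of the 35 members tested were higher (22.9%) and 4 were lower (11.4%) at an adjusted p below 0.05 in limma, against 18.5% and 19.5% of all genes tested. With 8 and 4 genes, neither share sets the list apart from the background. Single roles hold 2 to 8 genes tested, too few for a count to set a role apart. Members moved in both directions. The core fusion genes Snap25 and Vamp2, the calcium sensors Syt7, Syt4 and Doc2b, the primer Unc13a and both granule membrane proteins Ptprn and Ptprn2 rose, while the syntaxin Stx1a, the endosomal Vamp8 and the synaptotagmins Syt1 and Syt13 fell. The median log2 fold change was 0.10 over the members tested and -0.0031 over all genes tested. The groups did not overlap in 25 of the 35 members, 15 with both 3D cultures above both monolayers and 10 with both below, and 75.5% of all genes tested were without overlap too.

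Whether members passed depended on the cultures in the fit, more than the size of their changes did. With 3D replicate 1 left out, 0 of the 12 called members passed in limma, with adjusted p-values from 0.0650 to 0.147, although 8 members were higher and 4 lower at an unadjusted p below 0.05 and all 12 called members had the same direction as before, with log2 fold changes 0.87 to 1.18 times those of the main fit. In that fit 136 genes were called over the whole table, against 4541 with all 4 cultures. With 3D replicate 2 left out, 3 of the 12 passed and 1037 genes were called. With monolayer replicate 1 or 2 left out, 11 and 10 of the 12 passed. Over these 4 fits the log2 fold changes of the 12 were 0.74 to 1.27 times those of the main fit. All 12 passed under each other scaling, filter, pseudocount and empirical Bayes option in which they were tested.

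**Figure D1:**
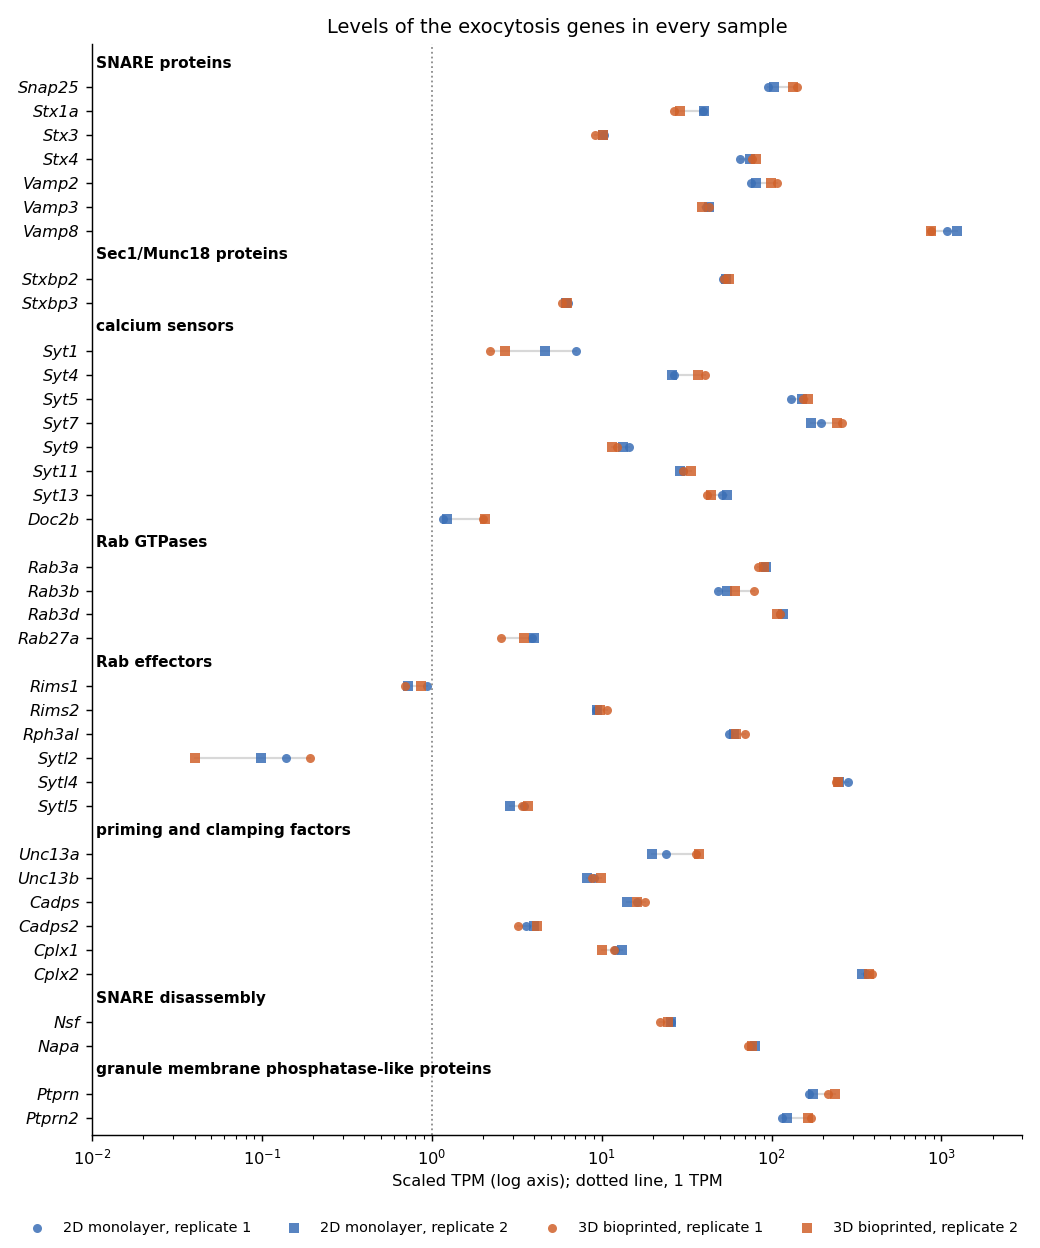
Scaled TPM of the 37 listed members in each of the 4 samples, on a log axis and grouped by role. Circles are replicate 1 and squares replicate 2, blue for 2D monolayer and orange for 3D culture. Levels run from below 0.2 TPM for Sytl2 to 1076 and 1235 TPM for Vamp8 in monolayer, and most members differ far more from each other than between cultures.

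TPM is corrected for length, so levels can be set side by side between genes. Summed over the 37 listed members, the level was 3334 and 3495 TPM in the monolayers and 3416 and 3397 TPM in 3D culture. These sums overlap, and the summed level did not separate the conditions. The makeup of the sum did. Vamp8 alone gave 32.3% and 35.3% of the sum in monolayer and 25.3% and 25.5% in 3D culture. Without Vamp8 the remaining members summed to 2258 and 2259.9 TPM in monolayer and to 2551 and 2531 TPM in 3D culture, both 3D values being the higher. Setting Vamp8 apart was not among the planned comparisons. Its lower share and the higher remainder describe the same shift, and no test was run on these sums. The limma fit covers single genes, and for a value outside it an exact permutation test of 2 against 2 cannot give a two-sided p below 0.333. In bulk RNA a lower level may come from fewer cells that express a gene or from less RNA per cell, and these cannot be told apart.

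The neuronal-type SNARE trio did not move as a unit. Snap25, the plasma membrane SNARE that brings a pair of helices to the complex, stood at 94.7 and 103 TPM in the monolayers and 141 and 134 TPM in 3D culture. Vamp2, the granule SNARE of stimulated insulin release, stood at 75.1 and 81.3 TPM and then 107 and 99.2 TPM. For both genes the pair of 3D cultures lay above the pair of monolayers, with a gap wider than the spread inside either group. Snap25 rose 1.39-fold (log2 fold change 0.47, 95% interval 0.30 to 0.64, adjusted p = 0.00727) and Vamp2 1.32-fold (log2 fold change 0.39, 95% interval 0.22 to 0.57, adjusted p = 0.0114). Stx1a, the syntaxin that pairs with them, went the other way, from 39.3 and 39.8 TPM in monolayer to 26.8 and 28.7 TPM. The monolayers were almost equal and both 3D cultures lay well below them. The log2 fold change of Stx1a was -0.50 (95% interval -0.65 to -0.34, adjusted p = 0.00582).

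The ratio of partner transcripts shifted with these changes. The monolayers held 2.41 and 2.60 Snap25 transcripts for each Stx1a transcript and the 3D cultures 5.26 and 4.67. The Vamp2 to Stx1a ratio was 1.91 and 2.04 in monolayer and 3.99 and 3.45 in 3D culture. Between Snap25 and Vamp2 themselves the ratio moved little, from 1.26 and 1.27 to 1.32 and 1.35, although both 3D values were still the higher. These ratios do not depend on the scaling between samples and were given no test.

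**Figure D2:**
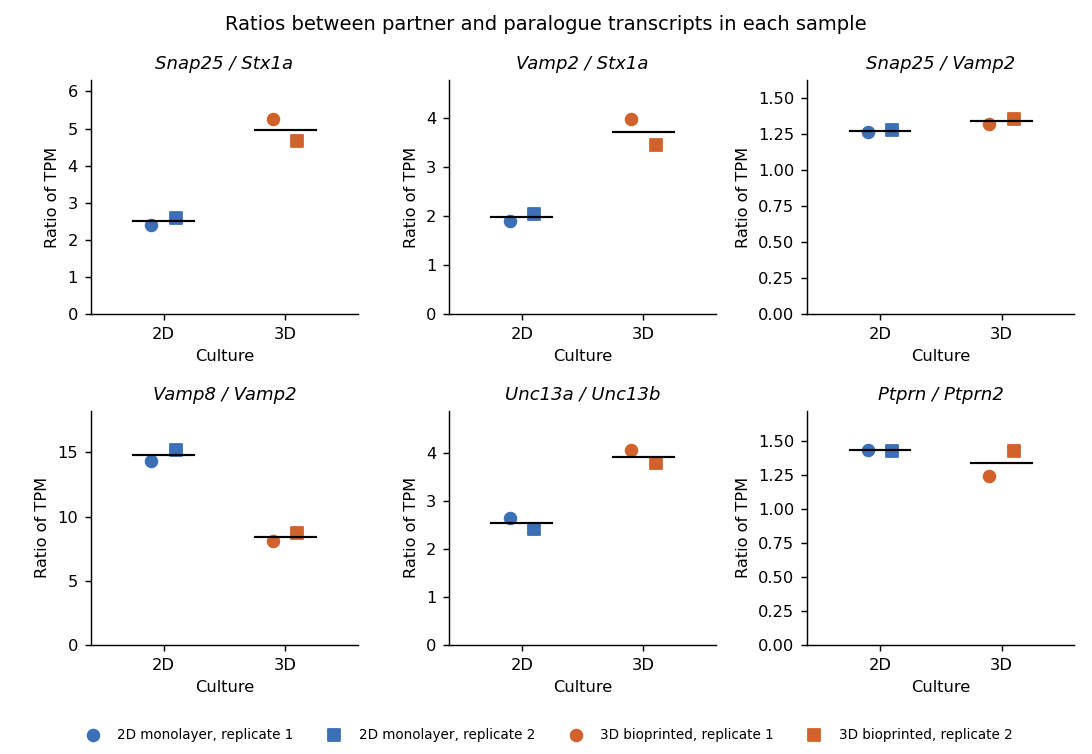
Ratio of scaled TPM between pairs of members in each sample, with 2D monolayer in blue, 3D culture in orange and black bars for the mean of 2 cultures. The ratio of Snap25 to Stx1a goes from 2.41 and 2.60 in monolayer to 5.26 and 4.67 in 3D culture, that of Vamp8 to Vamp2 from 14.3 and 15.2 to 8.08 and 8.73, while the Ptprn to Ptprn2 ratio of 3D replicate 2 stays at the monolayer level.

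Vamp8, a VAMP of endosomes and lysosomes that also serves granules newly arriving at the membrane, was the most abundant member in both conditions. It stood at 1076 and 1235 TPM in monolayer and at 864 and 866 TPM in 3D culture. The 3D cultures were nearly equal and both lay below the lower monolayer, a fall with a log2 fold change of -0.41 (95% interval -0.62 to -0.21, adjusted p = 0.0160). Within the 3 VAMPs listed, Vamp8 took 90.2% and 90.9% of the summed TPM in monolayer and 85.3% and 86.2% in 3D culture, and Vamp2 6.30% and 5.98% against 10.5% and 9.88%. Vamp3, the widely expressed relative of Vamp2, lay between 39.0 and 42.7 TPM with overlapping groups, and the 95% interval of its log2 difference was -0.21 to 0.12. Among syntaxins, Stx4, another plasma membrane syntaxin of insulin release, ran from 65.5 TPM in a monolayer to 80.8 TPM in a 3D culture, with an interval of -0.031 to 0.36 (adjusted p = 0.145). It passed the threshold (adjusted p = 0.0313, log2 fold change 0.24) where the most abundant transcript stood in for the sum, and in no other setting. From 0.17 in the main fit the log2 fold change went to 0.072 without monolayer replicate 1 (adjusted p = 0.397) and 0.26 without monolayer replicate 2 (adjusted p = 0.0503), and to 0.21 and 0.13 without 3D replicate 1 and 2 (adjusted p = 0.264 and 0.443). Its share of the 3 syntaxins was 56.9% and 59.8% in monolayer, against 68.0% and 67.5% in 3D culture, while that of Stx1a went from 34.1% and 32.0% to 23.9% and 24.0%. Stx3, the syntaxin of granule-to-granule fusion, stayed between 9.17 and 10.3 TPM.

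The Sec1/Munc18 members were close to level. Stxbp2, the partner of Stx3, stood at 52.1 and 54.2 TPM in monolayer, against 52.5 and 56.2 TPM in 3D culture. The groups overlapped, and the 95% interval of the log2 difference, -0.12 to 0.19, leaves room for a small change either way (adjusted p = 0.712). Stxbp3, the partner of Stx4, lay between 5.86 and 6.32 TPM in all samples. In limma 0 of these 2 genes were called, and 0 had an unadjusted p below 0.05, against 50.6% of all genes tested.

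Of the 7 synaptotagmins and Doc2b, 3 were higher and 2 lower, against 18.5% and 19.5% of all genes tested. They are grouped as calcium sensors, although Syt11 and Syt13 are not known to bind calcium. Syt7, a sensor of high calcium affinity and the most abundant of them, stood at 194 and 170.0 TPM in monolayer and at 259 and 244 TPM in 3D culture. Both 3D cultures were above both monolayers, a 1.38-fold rise (log2 fold change 0.47, 95% interval 0.26 to 0.67, adjusted p = 0.0111). Syt4, a synaptotagmin with weak calcium binding that is known to gain expression as beta cells mature, stood at 26.5 and 26.0 TPM and then at 40.7 and 36.8 TPM. The monolayers were close together and the 3D cultures lay far above them, a 1.48-fold rise (log2 fold change 0.54, adjusted p = 0.00613). Doc2b, a sensor that binds syntaxins and Munc18 proteins, was scarce in every sample, with 1.16 and 1.23 TPM in monolayer, against 1.99 and 2.05 TPM in 3D culture. Both 3D cultures were higher, with a log2 fold change of 0.46 (95% interval 0.17 to 0.75, adjusted p = 0.0304 in limma). The levels lay near the 1 TPM needed for a test, and Doc2b was not tested where a mean of 5 TPM was required. The fold of the TPM, 1.69, is larger than the log2 fold change shows, because adding 1 to the TPM damps changes of scarce transcripts.

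Syt1, the fast calcium sensor of synapses, had the largest fall of any member tested. It stood at 7.06 and 4.66 TPM in monolayer and at 2.21 and 2.71 TPM in 3D culture. The monolayers were far apart, yet both exceeded both 3D cultures, and the log2 fold change was -0.97 (95% interval -1.44 to -0.50, adjusted p = 0.0148). Without monolayer replicate 1 it was -0.72, and without monolayer replicate 2 it was -1.23. Syt13, a member that lacks the calcium-binding residues of the family, stood at 51.1 and 54.5 TPM and then at 41.6 and 44.0 TPM. Its groups did not overlap, and the log2 fold change was -0.30 (adjusted p = 0.0194). Syt1 was a minor part of the family throughout, with 1.56% and 1.04% of the TPM of the 7 synaptotagmins in monolayer and 0.409% and 0.505% in 3D culture, where Syt7 took 42.9% and 37.9% and then 47.9% and 45.5%.

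The other synaptotagmins did not pass the threshold. Syt5, a sensor of dense-core granules and second in level to Syt7, ran from 129 to 163 TPM, and the 95% interval of its log2 difference was -0.034 to 0.40. Its log2 fold change, 0.18 in the main fit, was 0.29 with monolayer replicate 2 left out, where it passed (adjusted p = 0.0401), and 0.071 with monolayer replicate 1 left out (adjusted p = 0.410). Syt11, which does not bind calcium, ran from 29.0 to 33.7 TPM with overlapping groups and an interval of -0.082 to 0.29. Syt9, a granule sensor in insulin-secreting lines, lay between 11.4 and 14.4 TPM, with both 3D cultures below both monolayers but an adjusted p of 0.0766.

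The Rab GTPases that tether granules split into 2 genes close to level and 2, Rab3b and Rab27a, with the largest rise and the largest fall among the 23 members without a call. Rab3d, the most abundant, stood at 112 and 117 TPM in monolayer, against 113 and 108 TPM in 3D culture. These groups overlap, and the 95% interval of the log2 difference was -0.19 to 0.091 (adjusted p = 0.503). Rab3a, the main Rab3 of synapses, overlapped as well, between 83.1 and 92.8 TPM, with an interval of -0.23 to 0.10. Rab3b came closest to a call, at 48.3 and 54.3 TPM in monolayer, against 78.6 and 60.8 TPM in 3D culture. Both 3D values were above both monolayer values, but the 3D cultures were far apart, and the interval of 0.10 to 0.75 went with an adjusted p of 0.0511. It passed with the replicate number as a block (adjusted p = 0.0260), without scaling between samples (adjusted p = 0.0346) and with a minimum mean of 5 TPM (adjusted p = 0.0314), as well as with 3D replicate 2 left out (adjusted p = 0.0476). It did not pass in the other settings, with an adjusted p of 0.127 without a filter on low values and 0.0743 without the intensity trend, and with 3D replicate 1 left out its log2 fold change fell from 0.43 to 0.24 (adjusted p = 0.202). Rab27a, which recruits granuphilin to the granule, was the scarcest, between 2.55 and 4.01 TPM, with both 3D cultures below both monolayers (log2 fold change -0.31, adjusted p = 0.122). Its fall varied with the 3D culture left out, at -0.14 without replicate 1 and -0.47 without replicate 2. In limma 0 of the 4 Rab genes were called, and 1 had an unadjusted p below 0.05, against 50.6% of all genes tested.

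Of their 4 effectors tested, 0 passed in limma and 0 had an unadjusted p below 0.05, against 50.6% of all genes tested. Sytl4, which encodes the docking protein granuphilin, was the most abundant of them at 283 and 251 TPM in monolayer, against 239.8 and 245 TPM in 3D culture. Both 3D cultures lay just below the lower monolayer, which itself stood nearer to them than to the other monolayer (95% interval of the log2 difference -0.32 to 0.049, adjusted p = 0.193). The log2 fold change, -0.13 in the main fit, hung on the monolayers, at -0.22 without replicate 2 (adjusted p = 0.0487) and -0.050 without replicate 1 (adjusted p = 0.490). Rph3al, or Noc2, which links Rab proteins to release in endocrine cells, ran from 56.3 to 70.0 TPM with an interval of -0.013 to 0.38. Rims2, the RIM protein of beta cells, lay between 9.21 and 10.8 TPM, and Sytl5 between 2.87 and 3.67 TPM. Rims1 at 0.690 to 0.941 TPM and Sytl2 at 0.0401 to 0.193 TPM were below the level needed for a test, and their values overlapped between groups.

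Among the factors that ready a docked granule, 1 of 6 was higher and 0 lower in limma, against 18.5% and 19.5% of all genes tested. With an unadjusted p below 0.05 there was 1, against 50.6% of all genes tested. This gene, Unc13a, had the largest rise in log2 fold change of the members tested, while the fold of the TPM was slightly larger for the scarce Doc2b. Unc13a encodes Munc13-1, which opens syntaxin so that the SNARE complex can form. It stood at 23.8 and 19.8 TPM in monolayer and at 35.7 and 37.4 TPM in 3D culture. The groups were well apart, with a 1.68-fold rise (log2 fold change 0.72, 95% interval 0.49 to 0.96, adjusted p = 0.00640). Its paralogue Unc13b stayed between 8.16 and 9.87 TPM with overlapping groups, so the ratio of Unc13a to Unc13b went from 2.65 and 2.43 to 4.08 and 3.79. Cplx2, a complexin and second in level to Vamp8 among the members, stood at 366 and 342 TPM in monolayer, against 389.8 and 376 TPM in 3D culture. Both 3D values were higher by a small margin, and the 95% interval of the log2 difference, -0.039 to 0.27, held 0 (adjusted p = 0.185). Cplx1 was far scarcer, between 10.0 and 13.2 TPM. The Cadps genes, which prime dense-core granules, lay between 14.1 and 17.9 TPM for Cadps and between 3.21 and 4.14 TPM for Cadps2, and neither passed.

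SNARE disassembly gave no call. Napa, which encodes the adaptor alpha-SNAP, stood at 76.1 and 80.4 TPM in monolayer, against 72.9 and 76.9 TPM in 3D culture. The groups overlapped, with a 95% interval of -0.21 to 0.090 (adjusted p = 0.449). Nsf, the ATPase that pulls the complex apart, ran from 22.1 to 25.6 TPM, with an interval of -0.31 to 0.043. In limma 0 of these 2 genes had an unadjusted p below 0.05, against 50.6% of all genes tested.

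Both phosphatase-like proteins of the granule membrane rose. Ptprn and Ptprn2 encode IA-2 and phogrin, transmembrane proteins without known phosphatase activity on proteins, autoantigens in autoimmune diabetes, whose loss lowers granule number in mice. Ptprn stood at 166 and 176 TPM in monolayer, against 214 and 235 TPM in 3D culture, and Ptprn2 at 116 and 124 TPM and then 171 and 164 TPM. All 3D values lay above all monolayer values of the same gene. The log2 fold change was 0.39 for Ptprn (95% interval 0.21 to 0.56, adjusted p = 0.0124) and 0.49 for Ptprn2 (95% interval 0.33 to 0.64, adjusted p = 0.00578). The ratio of Ptprn to Ptprn2 was 1.44 and 1.43 in monolayer and 1.25 and 1.43 in 3D culture, with 1 of the 3D values inside the monolayer range, so the pair kept its proportions more closely than the Unc13 or VAMP genes did.

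**Figure D3:**
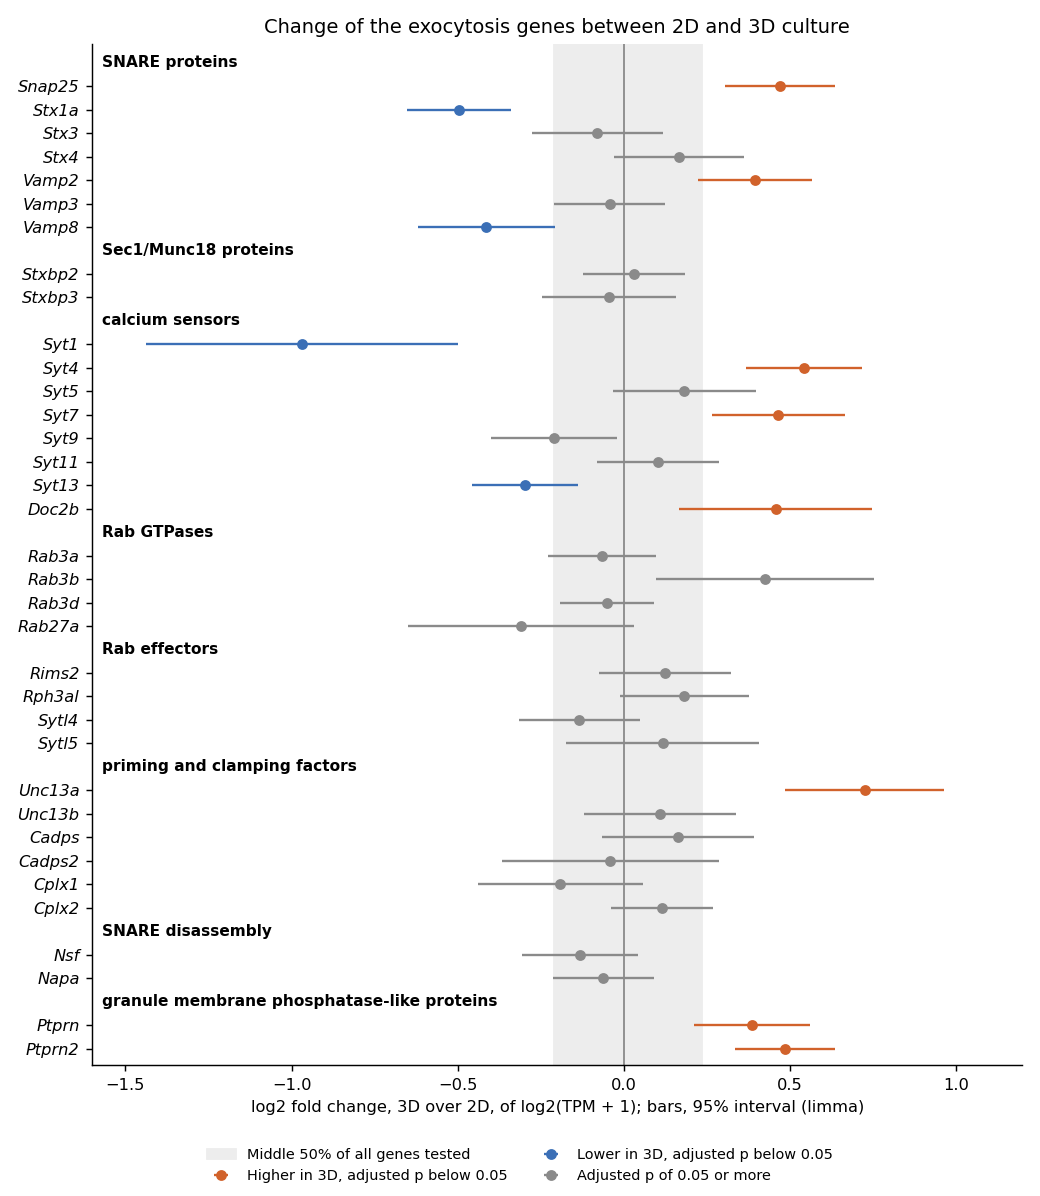
Log2 fold change of the 35 members tested, 3D over 2D, with 95% intervals from limma, grouped by role. Orange marks the 8 members higher and blue the 4 lower in 3D culture at an adjusted p below 0.05, grey the other 23, and the shaded band spans the middle 50% of all genes tested. Called genes lie among SNAREs, calcium sensors, Unc13a and the Ptprn pair, and none among Rab GTPases, Rab effectors, Sec1/Munc18 and disassembly genes.

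Where a member has several transcripts, their shares show whether a change went with a switch of isoform. Of the 37 members, 11 have more than 1 listed transcript. Snap25 has 2 abundant transcripts, and the more abundant took 53.1% and 56.1% of its TPM in monolayer, against 53.5% and 53.4% in 3D culture. The main Syt7 transcript took 77.8% and 78.8% in monolayer, against 77.9% and 77.1% in 3D culture. Both genes therefore rose with their isoform makeup almost as it was. For Syt1 the main transcript took 72.8% and 79.5% in monolayer, against 70.3% and 54.2% in 3D culture, a spread that rests on a few TPM. The main Sytl4 transcript went from 53.2% and 54.4% to 50.2% and 50.6%, a small shift with no overlap. The widest shift of mean share among the members tested was in Rims2, which was not called. Its transcript ENSRNOT00000050753 took 42.9% and 22.3% in monolayer, against 47.2% and 53.7% in 3D culture, and ENSRNOT00000006393 took 9.25% and 30.9%, against 6.12% and 0%. The monolayers were far apart in both, and each transcript was at most 5.23 TPM. Reads shared between transcripts of a gene are divided by a model, so these shares are less certain than the gene sums.

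RefSeq promoters (build GRCr8, 250 bases before to 50 after the start) were at hand for 29 of the 37 listed members. They are shown for the largest rise and fall on the log2(TPM+1) scale, Unc13a and Syt1, with the paralogues Unc13b and Syt9, and for Ptprn2 and Ptprn, added after the values and the motif matches were seen. For the members 10 motifs were searched on both strands, with the results already known. Each is printed 5′ to 3′ on the strand of its gene, for Unc13b from the first of 2 listed starts. In the Unc13 and Ptprn stretches capitals mark TTCAGCACC and GGACAG, the left and right parts of RE1, the element bound by the neuronal gene repressor REST, or their reverse complements GGTGCTGAA and CTGTCC. In the Syt stretches capitals mark the GC box GGGCGG.
Unc13a: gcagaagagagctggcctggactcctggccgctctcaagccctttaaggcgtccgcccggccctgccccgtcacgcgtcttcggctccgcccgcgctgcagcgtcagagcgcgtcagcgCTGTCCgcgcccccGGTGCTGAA
Unc13b: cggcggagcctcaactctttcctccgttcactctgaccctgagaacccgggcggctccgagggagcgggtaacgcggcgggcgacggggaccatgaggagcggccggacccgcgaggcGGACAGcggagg
Ptprn2: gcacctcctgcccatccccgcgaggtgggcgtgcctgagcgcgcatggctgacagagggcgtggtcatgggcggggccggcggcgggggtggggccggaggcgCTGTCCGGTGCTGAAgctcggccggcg
Ptprn: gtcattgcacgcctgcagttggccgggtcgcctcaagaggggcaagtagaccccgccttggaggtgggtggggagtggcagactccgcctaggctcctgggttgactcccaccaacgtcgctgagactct
Syt1: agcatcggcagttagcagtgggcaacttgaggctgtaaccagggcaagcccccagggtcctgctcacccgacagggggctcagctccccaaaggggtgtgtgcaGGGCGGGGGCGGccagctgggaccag
Syt9: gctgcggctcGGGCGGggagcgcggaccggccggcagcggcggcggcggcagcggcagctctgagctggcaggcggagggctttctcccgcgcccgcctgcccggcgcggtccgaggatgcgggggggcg
They lie at chr16:18415775-18415916 (minus strand), chr5:62084907-62085036 (plus strand), chr6:143582438-143582567 (plus strand), chr9:84204824-84204953 (minus strand), chr7:46244214-46244343 (minus strand) and chr1:170687675-170687804 (plus strand). Each holds the 130 bases before the start, and that of Unc13a goes on for 12 bases to the end of its match.

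TTCAGCACC is rare, found in 119 of 33469 promoters (0.356%). Among the members it was in Unc13a and Ptprn2, both of which rose, and in 0 of the 110 other pathway genes with a promoter. Promoters were at hand for 5 of the 8 members called higher and 3 of the 4 called lower. Snap25, Syt7, Doc2b and Syt13 were therefore not searched. In Unc13a and Ptprn2 the left part lies near the start on the opposite strand. The right part is 8 bases away in Unc13a and 0 in Ptprn2. The spacing thus differs, and whether either pair makes up a whole RE1 was not tested. The shorter core CAGCACC, which overlaps the left part, was in 5 members, the other 3 being Syt4, Rab27a and Rph3al, in 12 of the 110 other pathway genes and in 6.78% of all promoters. GGACAG was in 8 members, 30 other pathway genes and 21.7% of all promoters. Unc13a and Ptprn2 were left out of a further count, since their matches led to it. The motif was still chosen with the results known, and no test was run on this count. It covers 39 genes tested that hold TTCAGCACC in the promoter. Of these, 13 were higher (33.3%) and 7 lower (17.9%) in 3D culture, against 18.5% and 19.5% of all genes tested. Their median log2 fold change was 0.14. Rest itself, looked up afterwards, was between 0.0535 and 0.0991 TPM. A match describes letters in a window and was not tested as a binding site.

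Of the remaining motifs, the GC box was in 21 of the 29 members, 76 of the 110 other pathway genes and 33.1% of all promoters, and the base composition differed too, with a median of 64.3% G and C in members and 51.7% in all. The short form of the cAMP response element, TGACG, was in 12 members and 34 other pathway genes (21.2% of all promoters). The full element TGACGTCA, which holds the short form on both strands, was in Napa alone of the members and in 5 other pathway genes (1.83% of all). The E-box CACGTG was in 4 members and 12 other pathway genes (6.42% of all), and ACGTG, which every such E-box holds and which can overlap TGACG, in 12 and 24 (19.3%). TATAAA was in 1 member and 5 other pathway genes (14.2%), and TGACTCA in 0 and 3 (4.63%).

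Outside the members, 107 of 133 further genes of the pathway were tested, and 17 were higher (15.9%) and 14 lower (13.1%) in 3D culture, against 18.5% and 19.5% of all genes tested, with no test of the list. Among the 29 other SNAREs and SNARE binders 3 were higher and 5 lower. They include Vti1a, a SNARE of the Golgi and endosomes, at 14.9 and 15.0 TPM in monolayer, against 27.6 and 26.2 TPM in 3D culture (log2 fold change 0.81, adjusted p = 0.00357). Gosr1 rose (log2 fold change 0.62) and Bet1 fell (log2 fold change -0.55), both SNAREs between the endoplasmic reticulum and the Golgi. With the most abundant transcript in place of the sum, the log2 fold change of Gosr1 was 0.098 and its call was lost (adjusted p = 0.248). Among 17 other granule Rabs, regulators and effectors 3 rose and 3 fell. Rab37, a Rab of secretory granules, stood at 58.5 and 63.6 TPM in monolayer, against 117 and 111 TPM in 3D culture. Its 3D cultures were far above its monolayers, and the log2 fold change of 0.89 (adjusted p = 0.00348) was a larger rise than that of any member. Rab26, another granule Rab, rose with a log2 fold change of 0.60, and Rab8a, a Rab of Golgi-derived carriers, fell with -0.31.

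Of 12 other active-zone and priming proteins 3 rose and 0 fell in limma, and 7 had an unadjusted p below 0.05 (58.3%, against 50.6% of all genes tested). The 3 called are Erc2 (log2 fold change 0.59), a scaffold of release sites, Rims3 (0.33), a short RIM, and Baiap3 (0.43), a relative of Unc13 in dense-core vesicle release. Among 9 further C2-domain sensors 2 rose and 2 fell, and Syt12 (log2 fold change 0.41), Syt17 (-0.46) and Esyt1 (-0.30) had the smallest p. Of 13 vesicle membrane proteins 3 rose and 1 fell. The granule proteins Sv2c and Sv2a moved apart, Sv2c from 0.811 and 0.524 to 2.30 and 2.02 TPM and Sv2a from 34.0 and 34.8 to 23.8 and 28.0 TPM, while Scamp5 rose with a log2 fold change of 0.27. In limma 0 of the 9 exocyst subunits, which tether vesicles, passed, and 4 had an unadjusted p below 0.05 (44.4%), again near the share of all genes. Of 18 genes of endocytic retrieval 3 rose and 3 fell. The clathrin light chain Cltb (log2 fold change -0.50) and the adaptor subunits Ap2m1 (-0.34) and Ap2s1 (-0.49) fell, while dynamin 1, Dnm1 (0.50), the lipid phosphatase Synj1 (0.29) and the clathrin heavy chain Cltc (0.27) rose. Rims3, Baiap3, Syt12, Esyt1, Scamp5, Synj1 and Cltc each missed the threshold in at least 1 other setting that kept all cultures. The log2 fold change was 0.25 for Baiap3 without monolayer replicate 1, -0.20 for Esyt1 without 3D replicate 1 and 0.18 for Rims3 with the most abundant transcript in place of the sum.

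**Figure D4:**
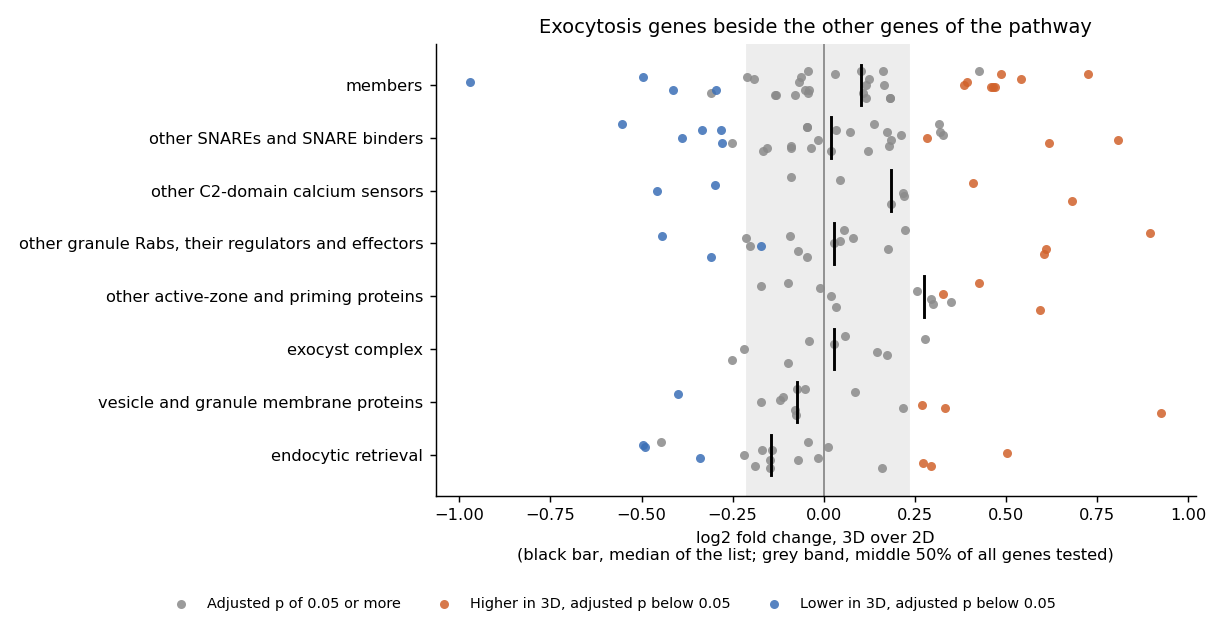
Log2 fold change, 3D over 2D, of the 35 members tested and of the 107 other genes tested in 7 lists, 1 point a gene. Orange and blue mark genes higher and lower in 3D culture at an adjusted p below 0.05, black bars the median of each list and the grey band the middle 50% of all genes tested. The medians lie inside the band except that of the other active-zone and priming proteins, at 0.28, and the highest point among the members is Unc13a at 0.72.

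Markers were read to see what the samples hold. Of 8 beta-cell markers 7 were listed, and Ins1, the most abundant, stood at 112811 and 131711 TPM in monolayer, against 126566 and 134740.0 TPM in 3D culture, with overlapping groups. Their summed level was 137657 and 157297 TPM in monolayer, against 148586 and 157745 TPM in 3D culture, so both conditions were insulin-expressing cells. Among them Ins2 fell (log2 fold change -0.58) and the glucose transporter Slc2a2 rose (0.39). Gcg, the alpha-cell hormone gene, stood at 41.5 and 76.9 TPM in monolayer, against 123 and 152 TPM in 3D culture (log2 fold change 1.26, adjusted p = 0.0217). The other 5 markers of alpha, delta and PP cells stayed below 1 TPM in every sample, with Irx2 and Hhex at 0, and the summed level of that list followed Gcg. Since many members also serve synapses, 7 neuronal markers were read. Their sum was 146 and 143 TPM in monolayer, against 143 and 133 TPM in 3D culture, with Tubb3 the most abundant, while Rbfox3 and Gad1 rose and Tubb3, Nefm and Slc17a7 fell. The part of these genes in the changes of the members was not tested.

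Defining markers of other cells were at or near 0. Dcn and Lum of fibroblasts, Cdh5 of endothelium, Ptprc, Aif1 and Cd79a of immune cells and Prss1, Cpa1 and Cela1 of acinar cells were at 0 in all 4 samples. Summed levels were at most 2.33 TPM for fibroblast markers, led by Pdgfra, 1.65 TPM for endothelial markers, led by Kdr, and 1.41 TPM for immune markers, led by Cd68, each in a 3D culture. Acinar and duct markers summed to between 15.2 and 21.1 TPM, nearly all of it Krt7.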

How the data were processed

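Libraries were made with a TruSeq stranded mRNA kit and read on a NextSeq 500 as single-end reads of 75 bases. The authors quantified them per transcript with Salmon 1.2, after FastQC 0.11.8, on what their notes call rn4 plus the human insulin gene, although some symbols in the tables look like those of a later assembly. They deposited TPM, written with decimal commas, which sum to 1000000 in each of the 4 samples. The paper gives a read count per sample, but TPM keep no counts per gene. Counting errors were therefore not estimated, and 2 cultures per group set the precision. The count-based test in the methods needs counts and was not run.

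TPM were added up per symbol and divided by a trimmed-mean factor for each sample (unweighted, trimming 30% of M and 5% of A, factors 0.960 to 1.02), and these scaled TPM are printed. Genes averaging 1 TPM or more were fitted on log2(TPM + 1), a scale that understates changes of scarce genes, with limma 3.58.1 (intensity trend, culture group alone) in R 4.3.3, and two-sided p-values were Benjamini-Hochberg adjusted over 11960 genes. The steps were run on simulated TPM with 200 changed genes and the same noise for every gene. Far more genes were called in these data, so this run checked the code and not the error rates here. Other work used Python 3.11.15, pandas 2.3.3 and matplotlib 3.10.9.

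The members and lists were chosen with earlier results of these data known, so no list was tested. Each value and its test are given for members with an adjusted p below 0.05 and the most abundant of each role, ranges for the others, with intervals from 20 TPM, and, per further list, called genes with the 3 smallest p and, where these all go 1 way, those called in the other. Promoters are given for the largest log2 rise and fall with a paralogue picked from gene function. Alternatives covered scaling, filter, pseudocount, empirical Bayes options, replicate block, transcript choice, thresholds and each culture left out. A result of 1 further pathway gene is not reported here.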

Additional observations from a re-analysis of the deposited data

How the results depend on the processing

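All 12 called members kept their direction under each alternative run. Of the settings that kept all 4 cultures, the thresholds moved the counts most, with 1 exception. At an adjusted p below 0.01, 1418 genes were called in all, 4 members were higher and 1 lower, and 5 other pathway genes were higher and 4 lower. With an absolute log2 fold change above 0.5 required, the values were 1573, 2 and 1, and 9 and 1. The exception was the count of other pathway genes higher, which was 8 without a filter on low values, below the 9 with the fold change required. Over fits that leave out 1 culture, the genes called ran from 136 to 4515, members higher from 0 to 8, members lower from 0 to 4, other pathway genes higher from 1 to 26 and lower from 0 to 13. The lone culture left in a group is then assumed to vary like the other group, and fewer samples enter the fit. The cause of the other shifts was not tested.

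Changes of sign were found for members near 0. The log2 fold change of Stxbp2 was -0.0055 without a filter and ran from -0.014 to 0.079 with cultures left out. Those of Vamp3 and Cadps2 ran from -0.10 to 0.021 and from -0.18 to 0.10. The replicate numbers did not pair the cultures (correlation of deviations -0.006), and a fit with the replicate block called 4814 genes, 9 members higher and 4 lower. The scalings moved the median log2 difference of all genes by less than 0.1. With 2 cultures per group and no counts per gene, small changes of scarce members such as Doc2b, Rab27a and Sytl5 are poorly bounded.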
